A study of Mus musculus with 8 samples.

Results

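Transcript levels of 9 homing and chemokine receptor genes were examined in mouse splenic B cells: Ccr7, Cxcr4, Cxcr5, Ccr6, S1pr1, S1pr3, Gpr183, Itgb7 and Itga4. The genes were chosen by name, and all 9 were found among the 41250 genes of the count table and passed the filter on low counts. Cells came from wild-type mice and from mice homozygous for the 3'RR, the hs3b-hs4 or the 3'PAL deletion, all on a mixed background that the labels spell 129/C58BL/6. The 3'RR is the cluster of enhancers downstream of the immunoglobulin heavy chain constant genes, which the 3'RR deletion removes. The hs3b-hs4 deletion takes out the pair of enhancers of that name, and of the 3'PAL deletion the labels give only the name. Splenic cells were enriched on a density gradient and freed of CD43-positive cells. RNA was taken either at once (resting) or after 48 hours with 5 µg/mL lipopolysaccharide (LPS), part of the outer wall of Gram-negative bacteria and a strong stimulus for B cells, and a second gradient (stimulated). Each of the 8 libraries was made from cells pooled from 4 animals, with 1 library for each genotype and state, and the age of the animals was not given in the sources used here.

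Homing receptors set where a B cell goes and how long it stays there. Chemokine receptors, sphingosine-1-phosphate receptors and the oxysterol receptor Gpr183 (also called EBI2) are G protein-coupled receptors that sense gradients made by stromal and other cells. Ccr7 follows Ccl19 and Ccl21 to the T cell zone, Cxcr5 follows Cxcl13 into the follicle, Cxcr4 holds cells near sources of Cxcl12, and Ccr6 responds to Ccl20. S1pr1 draws cells towards blood and lymph and holds marginal zone B cells in place, Gpr183 guides cells to the edge of the follicle, and the chains encoded by Itga4 and Itgb7 form α4β7, the integrin that binds Madcam1 in gut vessels, while α4 also pairs with β1 to bind Vcam1.

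The stretches of DNA before the start sites are shown for the members whose later results concern start sites (Ccr6) or in which a searched motif was found (Ccr6, Itga4, Itgb7). RefSeq promoter sequences on GRCm38.p6 were at hand for 6 of the 9 members, in 7 windows running from 250 bases before to 50 bases after a gene start, and Ccr7, Cxcr5 and S1pr1 had no entry. Both strands were searched for GTAAACA (FoxO), CACACCC (KLF), GGAANTTCC (NF-kB) and ATGCAAAT (the octamer), none of which overlapped another here. Only the 250 bases before the start are printed, 5′ to 3′ on the gene's own strand, with motif letters in capitals. The first Ccr6 window is chr17:8235793-8236042 on the plus strand, the second is chr17:8242276-8242525 on the plus strand, Itga4 is chr2:79255176-79255425 on the plus strand, and Itgb7 is chr15:102231936-102232185 on the minus strand.
Ccr6, upstream start: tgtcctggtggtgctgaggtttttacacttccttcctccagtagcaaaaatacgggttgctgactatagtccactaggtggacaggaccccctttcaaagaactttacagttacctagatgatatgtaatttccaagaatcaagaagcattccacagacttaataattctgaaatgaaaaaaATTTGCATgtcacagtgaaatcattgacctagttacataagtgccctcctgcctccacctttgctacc
Ccr6, middle start: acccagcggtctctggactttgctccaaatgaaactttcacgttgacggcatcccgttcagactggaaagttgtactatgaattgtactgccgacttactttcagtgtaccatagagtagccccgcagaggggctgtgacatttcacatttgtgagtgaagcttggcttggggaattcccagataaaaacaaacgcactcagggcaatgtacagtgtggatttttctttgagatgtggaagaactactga
Itga4: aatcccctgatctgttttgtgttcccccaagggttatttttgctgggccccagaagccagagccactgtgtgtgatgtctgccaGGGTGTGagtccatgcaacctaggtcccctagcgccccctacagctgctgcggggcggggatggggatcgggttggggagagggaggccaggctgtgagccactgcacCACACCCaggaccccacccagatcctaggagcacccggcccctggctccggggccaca
Itgb7: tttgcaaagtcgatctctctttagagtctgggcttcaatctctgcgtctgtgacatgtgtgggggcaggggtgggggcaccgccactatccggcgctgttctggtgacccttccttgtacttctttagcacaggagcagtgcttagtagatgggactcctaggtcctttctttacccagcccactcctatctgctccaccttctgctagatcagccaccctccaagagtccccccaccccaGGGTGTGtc
The KLF letters were present at 58 bases before the start of Itga4 and, on the reverse strand as GGGTGTG, at 166 bases before it and at 9 bases before the start of Itgb7. The octamer was present on the reverse strand as ATTTGCAT in the upstream Ccr6 window, 68 bases before that start. None of these letters stood in the windows of Cxcr4, S1pr3, Gpr183 or the middle Ccr6 start, and no window held the FoxO or NF-kB letters. Each motif was searched only as the letters given, so other forms of a site were not covered. The middle Ccr6 window holds gggaattccc, which lacks the N of the NF-kB letters and was not counted. Of 32851 mouse promoter windows of the same length, 7.95% held the KLF letters, 1.74% the octamer, 3.65% the FoxO letters and 0.928% the NF-kB letters. A match of letters describes the sequence and shows no binding.

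Libraries held 17883683 to 28785192 counts assigned to genes. Levels are given as CPM, counts scaled to library size with TMM factors (trimmed mean of M values), in the order wild-type, 3'RR-deleted, hs3b-hs4-deleted and 3'PAL-deleted unless stated otherwise. The summed CPM of 8 B cell markers was 3526 to 3705 in resting and 2673 to 3303 in stimulated libraries. Other cell types left transcripts mainly in the resting libraries. The sums were 285 to 1277 CPM for 10 monocyte and macrophage markers, 3109 to 21519 for 8 erythroid markers, 60.0 to 184 for 6 dendritic cell markers and 32.5 to 66.0 for 10 T cell markers, of which Cd3d, Cd3e, Cd3g and Trac lay below the filter. In stimulated libraries these sums were 7.37 to 15.4, 10.4 to 244, 46.5 to 52.8 and 11.2 to 22.5 CPM. Flt3 alone gave 43.6 to 50.7 CPM of the stimulated dendritic cell sum and was called higher, while the other 5 dendritic cell markers were called lower. Lck alone, which was not called, gave 10.8 to 21.5 CPM of the stimulated T cell sum. The neutrophil marker Ly6g had no count in any library.

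After stimulation 7 of the 9 members fell, none rose, and Cxcr5 and Ccr6 did not pass the test. The question was how cells of all 4 genotypes responded to 48 hours of LPS culture, tested in edgeR's quasi-likelihood fit on genotype plus state with Benjamini-Hochberg adjustment over 14789 genes. Of all genes tested, 35.2% were called lower and 34.5% higher. The median log2 fold change was -2.25 over the members and -0.02 over all genes tested. Freshly isolated cells are the only comparator, so LPS, time in culture and the second gradient cannot be told apart. In bulk RNA, fewer cells of a type and less RNA per cell cannot be told apart either.

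**Figure D1:**
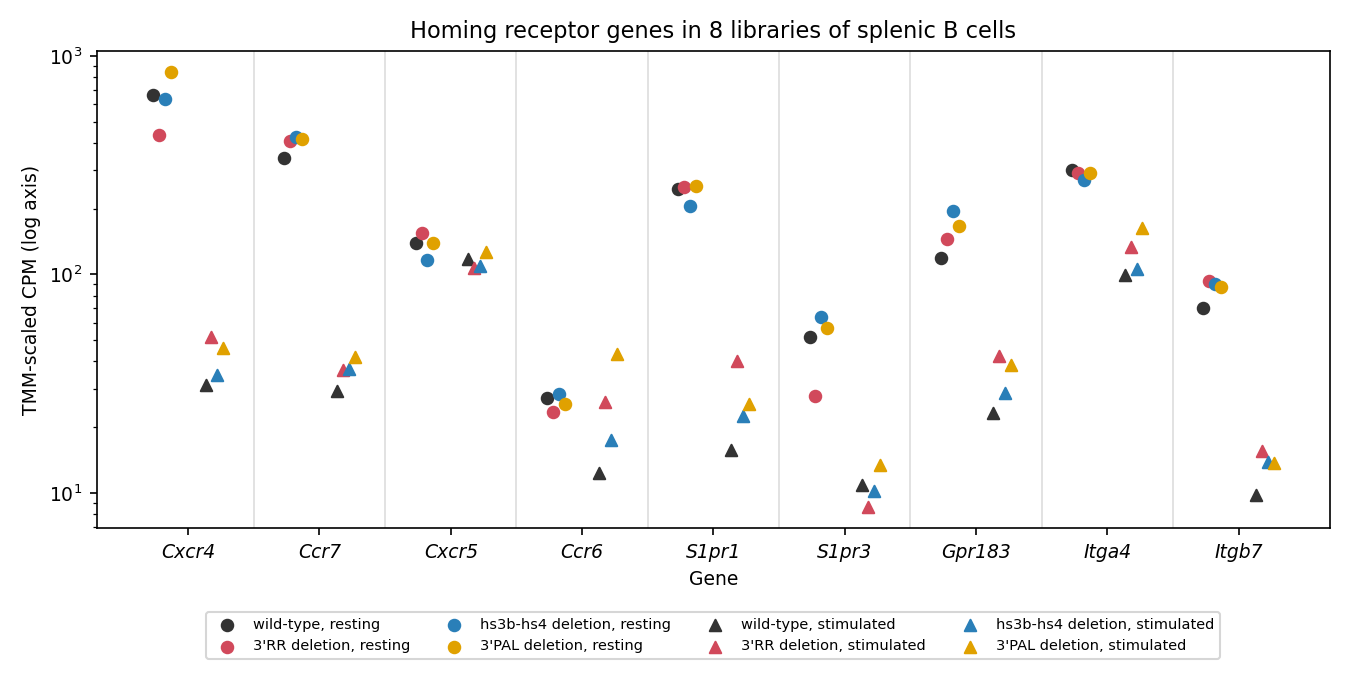
Level of each member in CPM (TMM-scaled, log axis) in the resting and the stimulated library of each of the 4 genotypes; each point is 1 library. The states overlap for Cxcr5 and Ccr6, while for the other members every stimulated point lies below every resting point. The share of all genes without overlap was not computed. Of all genes tested, 35.2% were called lower and 34.5% higher.

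Among the chemokine receptors, Ccr7 was at 341, 407, 428 and 416 CPM in resting cells and at 29.3, 36.7, 36.8 and 41.8 CPM after stimulation. Every stimulated library lay far below every resting one, and in both states wild-type was the lowest. The level fell by 3.47 on the log2 scale (SE 0.0895, edgeR adjusted p = 2.6e-06), and the decrease was 9.95- to 11.7-fold in the individual genotypes. Ccr7 is the receptor that brings lymphocytes to the T cell zone.

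Cxcr4, the receptor for Cxcl12, was at 664, 434, 637 and 840.4 CPM in resting cells and at 31.0, 51.6, 34.7 and 46.1 CPM in stimulated cells. The states did not overlap, and the 3'RR-deleted pool was the lowest of the resting and the highest of the stimulated libraries. It fell by 3.97 on the log2 scale (SE 0.239, edgeR adjusted p = 1.6e-05), the largest fitted decrease among the members, with a range of 8.40-fold in 3'RR-deleted to 21.4-fold in wild-type cells. In 3'RR-deleted cells alone the decrease of Ccr7 was larger, at 11.1-fold.

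Cxcr5, the follicle homing receptor, was at 139.5, 154, 116 and 139 CPM at rest and at 118, 107, 109 and 127 CPM after stimulation. The lowest resting library, hs3b-hs4-deleted, lay below the highest stimulated ones, although each genotype was lower after stimulation than before, by 1.06- to 1.44-fold (with gene sums of kallisto estimates the log2 ratio in hs3b-hs4-deleted cells was 0.02). The log2 change of -0.25 (SE 0.0964) gave an edgeR p of 0.0373 and an adjusted p of 0.0531, so it missed the threshold of 0.05. The call is at the edge: DESeq2 gave an adjusted p of 0.0249, and the fit without a genotype term gave -0.29 (SE 0.0982, adjusted p = 0.0261 by edgeR).

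Ccr6, the receptor for Ccl20, was at 27.1, 23.4, 28.5 and 25.4 CPM at rest, a narrow range, and at 12.3, 26.1, 17.5 and 43.4 CPM after stimulation. Wild-type and hs3b-hs4-deleted cells lay below their resting level, with ratios of 0.455 (95% interval 0.396 to 0.522) and 0.614 (0.544 to 0.692). The 3'RR-deleted cells lay slightly above theirs at 1.12 (1.01 to 1.25), and the 3'PAL-deleted cells above theirs at 1.71 (1.55 to 1.88). These are exact conditional binomial intervals for 1 library against 1 and cover counting error only. Over the 4 genotypes the log2 change of -0.21 (SE 0.295, edgeR adjusted p = 0.54) did not pass the test, and it was positive without either or both of the wild-type libraries (0.08 to 0.10).

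Of the lipid receptors, S1pr1 was at 247, 250.3, 205 and 254 CPM at rest and at 15.7, 40.1, 22.5 and 25.5 CPM after stimulation. The states did not overlap, and wild-type cells were the lowest and 3'RR-deleted cells the highest among the stimulated libraries. S1pr1, the receptor for exit into blood and lymph, fell by 3.27 on the log2 scale (SE 0.21, edgeR adjusted p = 2e-05), with decreases of 6.24-fold in 3'RR-deleted and 15.8-fold in wild-type cells.

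S1pr3, a second sphingosine-1-phosphate receptor known from marginal zone B cells, was at 51.8, 27.9, 63.7 and 56.8 CPM at rest and at 10.9, 8.63, 10.1 and 13.4 CPM after stimulation. The 3'RR-deleted library was the lowest in each state, and the states did not overlap. S1pr3 fell by 2.17 on the log2 scale (SE 0.155, edgeR adjusted p = 2.7e-05). Of 8 marginal zone markers, 7 were also called lower by edgeR and Mzb1 higher, and their summed level was 1380 to 2099 CPM at rest and 710 to 881 CPM after stimulation; their part in the S1pr3 decrease was not tested.

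Gpr183, the oxysterol receptor, was at 119, 145, 194 and 167 CPM at rest and at 23.3, 42.4, 28.7 and 38.5 CPM after stimulation. Wild-type was the lowest library in both states, and no stimulated library reached a resting one. Gpr183 fell by 2.25 on the log2 scale (SE 0.16, edgeR adjusted p = 2.7e-05), a 3.42- to 6.79-fold decrease in the individual genotypes.

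The integrin subunits fell by different amounts. Itgb7, the β7 chain, was at 70.1, 93.2, 90.3 and 87.1 CPM at rest and at 9.77, 15.5, 13.8 and 13.7 CPM after stimulation, with wild-type lowest in both states and no overlap. Itga4, the α4 chain, was at 301, 292, 269.6 and 292 CPM at rest and at 99.1, 133, 106 and 163 CPM after stimulation, again with no overlap. The log2 change was -2.70 (SE 0.0837, edgeR adjusted p = 3.2e-06) for Itgb7 and -1.23 (SE 0.13, edgeR adjusted p = 0.00014) for Itga4. The decrease was 5.99- to 7.18-fold for Itgb7 and 1.80- to 3.04-fold for Itga4, so the ranges over genotypes did not overlap. The difference between the chains was not tested. Itga4 shares 1124 bases of its gene model with the antisense gene Cerkl, which had 28 to 64 counts in a library.

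Levels between genes were compared only per transcript length, within a library, as TPM (abundance relative to transcript length and depth). At rest the means over 4 genotypes ran from Cxcr4 (537 TPM), Ccr7 (239) and S1pr1 (89.6) through Gpr183 (62.0), Cxcr5 (58.8) and Itga4 (54.2) to Itgb7 (38.9), Ccr6 (20.2) and S1pr3 (12.2). Gpr183, Cxcr5 and Itga4 could not be ordered, since Gpr183 was above Cxcr5 in 2 of 4 libraries and Cxcr5 above Itga4 in 3. After stimulation Cxcr5 was the highest in TPM (51.0), above Cxcr4 (34.3) in all 4 libraries. Itga4 (25.6), Ccr7 (21.8) and Ccr6 (20.8) followed and changed places between genotypes, above Gpr183 (13.5), S1pr1 (9.94), Itgb7 (5.97) and S1pr3 (2.77). In stimulated 3'PAL-deleted cells Ccr6 (40.7 TPM) stood level with Cxcr4 (40.6 TPM). The Itga4 values sum 5 transcripts, of which the main one, ENSMUST00000099972, gave 46.9 to 61.6% of the gene's TPM. Alone, that transcript was at 21.4, 34.3, 29.5 and 28.5 TPM at rest, below the Itgb7 gene except in wild-type cells. After stimulation it was at 10.8 to 16.7 TPM, below Ccr7 in each genotype. The place of Itga4 in these orders thus depends on the transcripts summed. Wild-type resting TPM were low for most members. In that library Lars2 took 2.77% of TPM and 15.4% of estimated counts, against 0.0189 to 0.399% and 0.0808 to 1.70% elsewhere. The part of Lars2 in these levels was not tested.

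The same receptors were then compared between each deletion and wild-type over both states, in the same edgeR fit, which assumes an equal change in resting and stimulated cells. No member was called in the 3'RR, the hs3b-hs4 or the 3'PAL deletion. Of all genes, edgeR called 0.866% higher and 1.01% lower in 3'RR-deleted cells, 0.0676% in each direction in hs3b-hs4-deleted cells, and 0.338% higher and 0.176% lower in 3'PAL-deleted cells. At an unadjusted p under 0.05, S1pr1, Gpr183, Ccr7 and Itgb7 were higher and S1pr3 lower in 3'RR-deleted cells, and Gpr183, Ccr7 and Itgb7 were higher both in hs3b-hs4-deleted and in 3'PAL-deleted cells. Of all genes tested, 13.7%, 8.90% and 9.55% had an unadjusted p under 0.05 in either direction in the 3'RR, hs3b-hs4 and 3'PAL deletions. The 3 comparisons share the wild-type libraries. The lowest adjusted p was that of Itgb7 in 3'RR-deleted cells, with a log2 change of 0.53 (SE 0.113, edgeR adjusted p = 0.08). DESeq2 called this gene at 0.51 (SE 0.156, adjusted p = 0.0332) and no other member.

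Genotypes were also grouped by whether they lack hs3b and hs4 (3'RR and hs3b-hs4 deletions) or keep them (wild-type and 3'PAL deletion), with 2 libraries a group in each state. No member passed edgeR's test in resting or stimulated cells or for the difference between the states, where 0% of all genes passed in each comparison. The lowest adjusted p of a member was 0.91 at rest and 1 in the other comparisons by edgeR. No member had an unadjusted p under 0.05, against 869, 394 and 307 of all genes in resting cells, in stimulated cells and for the difference, and DESeq2 called 74, 7 and 2 genes and no member. Different genotypes stand as replicates in these fits, so the spread includes differences between genotypes.

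Within a state each mutant had 1 library against 1, so these ratios have no replicate check and no test. A member was counted when its log2 ratio of CPM + 1 was at least 1 in either direction with at least 10 CPM in the higher library. In resting cells no member met this rule in any mutant, while 5.68%, 3.65% and 3.63% of genes did in the 3'RR, hs3b-hs4 and 3'PAL deletions. In stimulated cells 2 of 9 met it with the 3'RR deletion, none with the hs3b-hs4 deletion and 1 with the 3'PAL deletion, where 3.25%, 1.47% and 3.06% of genes met it. The members were S1pr1 in 3'RR-deleted cells at 2.56 times wild-type (95% interval 2.29 to 2.87) and Ccr6 at 2.12 times (1.86 to 2.42) in 3'RR-deleted and 3.52 times (3.12 to 3.97) in 3'PAL-deleted cells. Ccr6 in 3'RR-deleted cells stood close to the limit and was below it at a pseudocount of 5 (log2 ratio 0.84) or with scaling by library size alone (0.96).

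**Figure D2:**
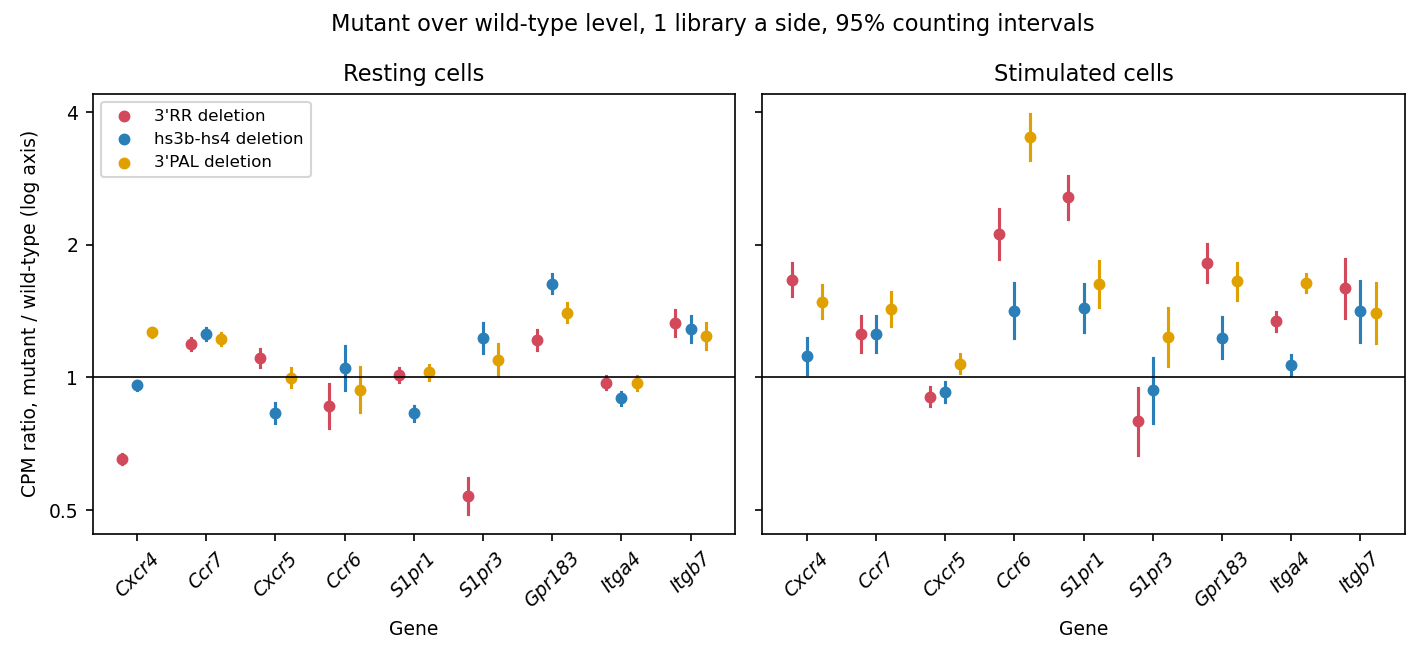
Ratio of each mutant library to the wild-type library of the same state for the 9 members (log axis), with exact 95% intervals for counting error only. Resting ratios lie between 0.538 and 1.63, and the highest ratios are those of Ccr6 and S1pr1 in stimulated cells.

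The wild-type stimulated library was the lowest of the 4 for 7 of the 9 members, all but Cxcr5 and S1pr3, and the highest for none. Among 8307 genes with a mean of at least 10 CPM, it was the lowest for 29.4% and the highest for 30.1%. All stimulated ratios have this library as their denominator. S1pr1 and Ccr6 were above wild-type also in hs3b-hs4-deleted cells, at 1.44 (1.27 to 1.63) and 1.42 (1.23 to 1.63) times. Gpr183 ranged from 1.23 to 1.82 times wild-type in stimulated and from 1.21 to 1.63 times in resting mutants. Ccr7 showed 1.25 to 1.43 times wild-type in stimulated and 1.19 to 1.25 times in resting mutants.

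The resting 3'RR-deleted library was the lowest of the 4 for 3 of the 9 members (Cxcr4, Ccr6 and S1pr3) and the highest for 2 (Cxcr5 and Itgb7). Among 8307 genes with a mean of at least 10 CPM, it was the lowest for 26.7% and the highest for 29.3%. No member met the size rule there, while 5.68% of genes did. S1pr3 was at 0.538 times wild-type (0.490 to 0.591) and Cxcr4 at 0.653 times (0.637 to 0.669), while in the hs3b-hs4 and 3'PAL deletions S1pr3 was at 1.23 and 1.10 times and Cxcr4 at 0.959 and 1.27 times. Scaling by library size alone put S1pr3 in resting 3'PAL-deleted cells slightly below wild-type (log2 ratio -0.048). Cr2, the complement receptor that is high in marginal zone B cells, was at 1012, 698, 1265 and 1198 CPM in these libraries, lowest in the same one as S1pr3. It is 1 of 8 marginal zone markers, which summed to 1674, 1380, 2099 and 1999 CPM at rest. Cr2, Dtx1 and Cd1d1 were lower and the other 5 markers higher in resting 3'RR-deleted than in wild-type cells, and without Cr2 the sum was 661, 683, 834 and 801 CPM. The part of marginal zone cells in the S1pr3 values was not tested.

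Ccr6 transcripts were made up differently in 3'PAL-deleted cells. The transcript table lists 6 Ccr6 transcripts that share 1 coding region, chr17:8255965-8257065 on GRCm38, and differ in their leader exons and start sites. Transcript ENSMUST00000166348 and the scarce ENSMUST00000167956 lack an untranslated exon of 115 bases at chr17:8255752-8255866 that the other 4 contain. GENCODE M21 also holds ENSMUST00000231545 and ENSMUST00000231340, which lack this exon but were not quantified. Any reads from them could be assigned only to the listed transcripts. The share of Ccr6 estimated counts without this exon was 10.8%, 6.37%, 8.39% and 56.5% in resting cells and 10.5%, 11.1%, 8.74% and 57.4% in stimulated cells. Both 3'PAL-deleted libraries thus lay above 50%, and the other 6 libraries lay between 6.37 and 11.1%. The exact binomial 95% intervals were 52.5 to 60.4% and 54.6 to 60.2% in 3'PAL-deleted cells and no higher than 14.2% in any other library. They treat every Ccr6 estimated count as assigned with certainty. The 6 transcripts share nearly all of a last exon of 1125 to 1179 bases, and reads within it do not tell them apart. The intervals are therefore too narrow.

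**Figure D3:**
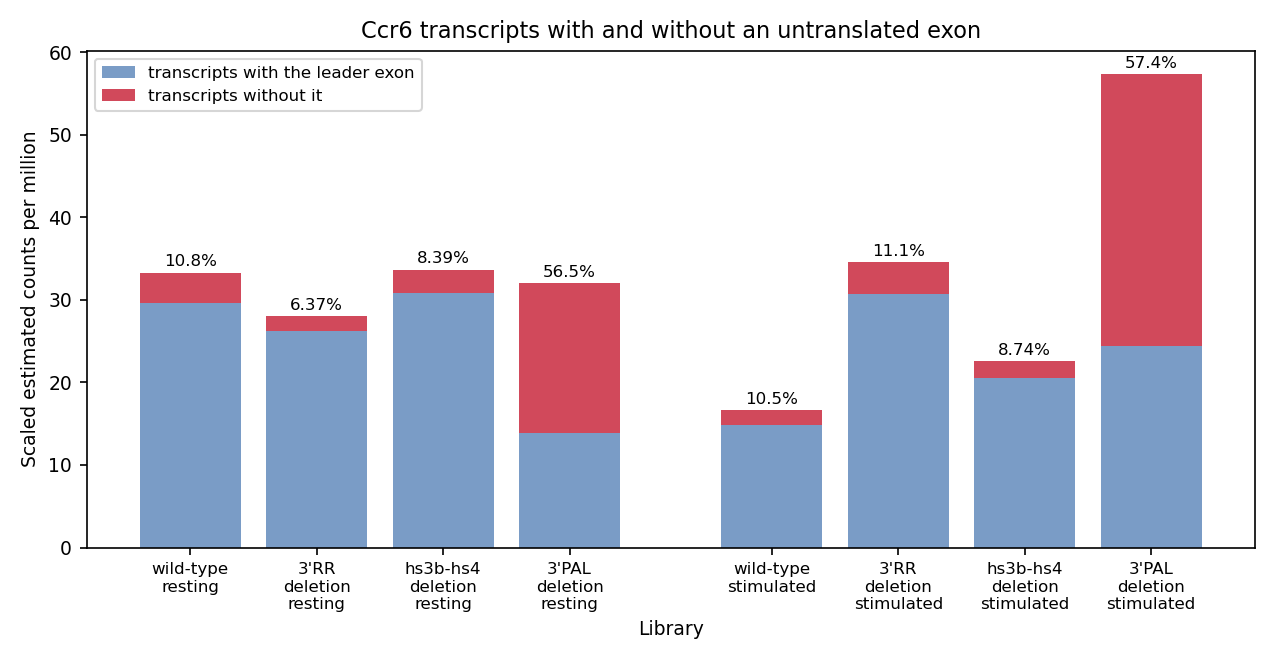
Ccr6 level in each of the 8 libraries (scaled estimated counts, stacked bars) split into transcripts with and without the 115-base leader exon; the percentage above each bar is the share without it. The 3'PAL-deleted libraries stand at 56.5% and 57.4%, and the other libraries at 11.1% or below.

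These shares rest on 344 to 1247 estimated counts per library, are kallisto's assignment of reads to similar transcripts, and have no replicate within a genotype and state. Against wild-type, Ccr6 transcripts without the exon were 5.01 times as high in resting and 18.8 times as high in stimulated 3'PAL-deleted cells, whereas those with it were 0.469 and 1.64 times as high. For transcripts without the exon, the wild-type base was only 55.3 estimated counts at rest and 36.2 after stimulation. The level of the whole gene in resting 3'PAL-deleted cells was 0.937 times wild-type (0.832 to 1.05). In 3'RR-deleted stimulated cells, whose gene total was also above wild-type, transcripts with and without the exon were 2.06 and 2.19 times wild-type. ENSMUST00000164411, whose first exon lies just downstream of the upstream window printed above, gave 10.4 and 10.9% of Ccr6 estimated counts in 3'PAL-deleted cells and 22.1 to 44.5% in the other libraries. ENSMUST00000097418, from the middle start, gave 18.5 and 16.5% there and 30.8 to 46.8% elsewhere. The other 4 transcripts, ENSMUST00000166348 among them, begin further downstream, at chr17:8243811 or 8243814, where no promoter entry was at hand. All 6 carry the same annotated coding region. ENSMUST00000231545, which was not quantified, begins at chr17:8245065, so the start site of the transcripts without the exon is not settled here.

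No such shift was seen in Itgb7, Itga4, Cxcr4 or Cxcr5, the other members with more than 1 transcript. Ccr7, Gpr183, S1pr1 and S1pr3 had 1 transcript each in the table, so no shift could show. The share of all genes with such a shift was not computed. The main transcript gave 99.1 to 100% of Itgb7 and 82.0 to 89.1% of Itga4 estimated counts. The shorter Cxcr4 transcript ENSMUST00000142893 gave 13.5 to 21.0%, and the Cxcr5 transcript ENSMUST00000179828 gave 14.6 to 27.3%, over all 8 libraries.

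Other genes of the same pathways were read from 9 lists with 139 genes, of which 124 passed the filter. After stimulation 88 of these were called lower and 14 higher by edgeR, and 22 were not called. Of all genes tested, 35.2% were called lower and 34.5% higher, the base for the counts of each list below. The median log2 change was -0.90, against -0.02 over all genes tested. By list it was -2.35 for other chemokine receptors, -6.08 for ligands, -1.12 for the sphingosine-1-phosphate system, -1.39 for other G protein-coupled receptors, -0.71 for integrins and selectin genes, -0.64 for signal relay, -0.75 for integrin activation and -1.01 for transcription factors. The lists were put together with results of these data known, and no test of a list was made.

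Among 15 other chemokine receptors tested, 11 fell and Ccr10, a receptor of plasma cell homing, rose. Its level was at most 0.312 CPM at rest and 0.353 to 0.991 CPM after stimulation. The falls included Ccr3, Cx3cr1 and Cmklr1, receptors that are common on myeloid cells, while Ccr9, Cxcr3 and Ackr4 did not pass. The monocyte and macrophage marker sum fell from at least 285 to at most 15.4 CPM between the same libraries, and its part in these falls was not tested. Of 4 ligands tested (Vcam1, Fn1, Cxcl12 and Cxcl13) all fell, while Ccl19, Ccl21a, Ccl20, Madcam1 and Cdh1 were below the filter. Vcam1, also among the macrophage markers, was at 50.6 to 303 CPM at rest and at most 0.119 CPM after stimulation.

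In the sphingosine-1-phosphate system 8 of 9 genes tested fell. They included Cd69, the surface protein that makes cells internalise S1pr1 (199 to 274 CPM at rest, 37.5 to 65.0 CPM after stimulation), the transporter Spns2 (17.2 to 22.4 CPM at rest, 2.61 to 5.39 CPM after stimulation), Sgpl1 and S1pr2, and the kinase Sphk2 did not pass. Of the enzymes that make or degrade the Gpr183 ligand, only Hsd3b7 passed the filter, and it fell. Of 11 other G protein-coupled receptors of migration, 8 fell, with P2ry10, Ptafr, Cnr2 and Ptger4 at the lowest adjusted p, and none rose.

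Integrins and selectin genes did not move one way: of 20 tested, 12 fell and 4 rose. Itgb1, the β1 chain that pairs with α4, was at 70.1 to 104 CPM at rest and 223 to 251 CPM after stimulation, an increase of 1.43 on the log2 scale (SE 0.121, edgeR), against the decrease of Itgb7. Itgal (the α chain of LFA-1), Cd47 and Cd44 also rose.

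Of 31 genes that relay chemoattractant signals, 18 fell and 3 rose, namely Rgs16, Gnb1 and Gnai3. Rgs1 and Rgs2, which dampen G protein signals, had 282 to 519 and 173 to 275 CPM at rest and 3.49 to 7.32 and 5.92 to 11.8 CPM after stimulation. Rgs16, of the same family, rose by 3.27 on the log2 scale (SE 0.282, edgeR) from levels of at most 0.423 CPM. In the integrin activation list, 12 of 17 fell, and Rap1a, Rasgrp3, Fermt3 and Pxn rose.

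All 16 transcription factors of the list passed the test, 14 lower and 2 higher. Klf2, which is known to drive S1pr1 in lymphocytes, was at 181, 186, 146 and 167 CPM at rest and at 10.2, 26.8, 11.0 and 10.1 CPM after stimulation, and fell by 3.67 on the log2 scale (SE 0.236, edgeR adjusted p = 2e-05). Its stimulated level was highest in the 3'RR-deleted library, as were S1pr1 and 25.1% of 8307 genes with a mean of at least 10 CPM. In stimulated hs3b-hs4- and 3'PAL-deleted cells Klf2 stood near its wild-type level, while S1pr1 was at 1.44 and 1.63 times wild-type. The part of Klf2 in the S1pr1 levels was not tested. Foxo1, known as an activator of Ccr7, fell by 1.59 (SE 0.14, edgeR), and Rel and Klf3 also fell. Prdm1, which encodes the plasma cell factor Blimp-1, and Nfkb1 rose.

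**Figure D4:**
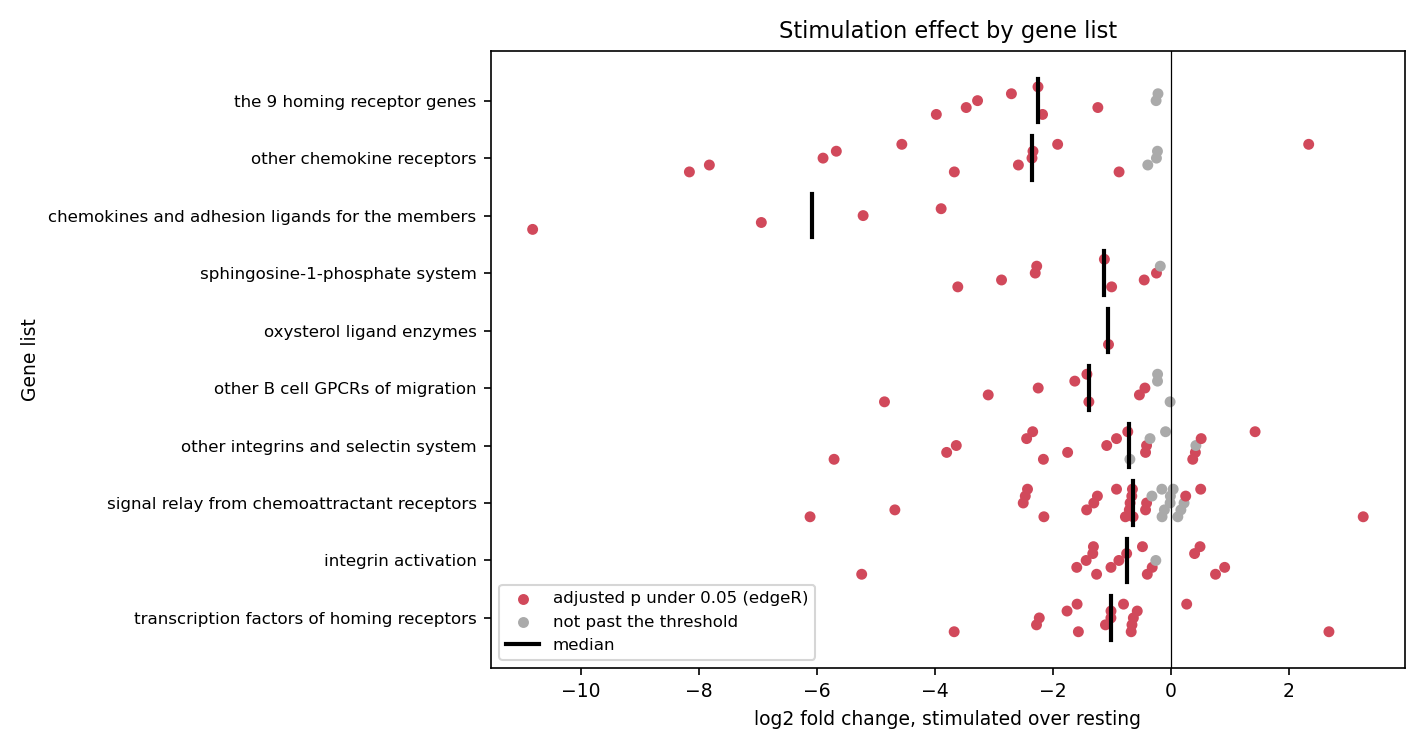
Log2 fold change on stimulation (edgeR, 4 stimulated against 4 resting libraries) of each tested gene in the 9 pathway lists and of the 9 members; each point is 1 gene, coloured by whether it passed the adjusted threshold, and the black bar is the list's median. Most points lie below 0 in every list, with 4 called higher in the list of integrins and selectin genes (Itgb1, Itgal, Cd47 and Cd44).

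In the mutants over both states, list genes called in 3'RR-deleted cells included Ackr3 and Vcam1. Ackr3, a scavenger receptor for Cxcl12, was lower by a log2 change of -1.92 (SE 0.34, edgeR adjusted p = 0.0443), and Vcam1, the α4β1 ligand, was higher by 2.36 (SE 0.24, edgeR adjusted p = 0.0054). Vcam1 stood at 58.8, 303, 101 and 50.6 CPM in resting cells, and the monocyte and macrophage sum, which includes it, was also highest in the 3'RR-deleted pool (383, 1277, 567 and 285 CPM). The part of these cells in the Vcam1 result was not tested.

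Genes most like each member were named by the smallest root mean square difference of log2(CPM + 1) over the 8 libraries, each gene centred on its own mean, among 11999 genes. For Ccr7 these were Klf6 (0.12) and Nr4a2 (0.17), for Cxcr4 Hes1 (0.19) and Per1 (0.24), and for S1pr1 Dusp5 (0.21) and Cd97 (0.22). S1pr3 was closest to Zfp532 (0.15) and Cr2 (0.16), the marginal zone gene named above. Gpr183 lay nearest to H2-Ob (0.14) and Matk (0.16), Itgb7 to Slc14a1 (0.13) and H2-Oa (0.15), and Itga4 to Dyrk1b (0.08) and Gpsm3 (0.08). Cxcr5 was closest to Fam76b (0.07) and Bloc1s3 (0.07), which like it varied little, and Ccr6 to Rrad (0.21) and Mt2 (0.24). Both states enter this measure, so genes with a like difference between the states come out as close.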

How the data were processed

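Gene counts were deposited by the authors as raw counts per symbol, made with STAR 2.4.0a and featureCounts (Subread 1.4.6-p1) on GRCm38, per the submitters' processing notes. Estimated counts and TPM per transcript were deposited by the authors in separate tables, made with kallisto 0.42.3 per the same notes. The annotation release and strand setting are not given. Per the labels, the libraries were stranded and depleted of ribosomal RNA. An unnamed entry (0.0062 to 0.0342% of counts) and 92 spike-in entries without counts were left out.

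Counts were scaled by TMM (factors 0.943 to 1.08), filtered by filterByExpr (14789 genes kept) and tested with edgeR 4.0.16 in R 4.3.3, with Benjamini-Hochberg adjustment over these genes. The genotype and state fit had 3 residual degrees of freedom (coefficient of variation between libraries 16.0%), and the fit with 4 groups of 2 libraries had 4 (25.8%). In the genotype and state fit, p-values rest on how the difference between states varied between the genotypes, noise included. For its deletion comparisons the resting and stimulated libraries of a genotype stand as replicates. In the fit with 4 groups, different genotypes stand as replicates. Alternatives were DESeq2 1.42.0, other scaling, no filter, gene sums of kallisto estimates and leaving out libraries. Intervals (SciPy 1.17.1) cover counting error only, with estimated counts rounded to whole counts. Those of the Ccr6 shares leave out the uncertainty of assigning reads to transcripts.

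The members and lists were chosen with earlier results of these data known. Named were all members, and from each list up to 4 genes with the lowest adjusted p for stimulation and those called against the direction of most of their list. Foxo1 fell outside this rule and was chosen after its values were seen, and some genes that meet the rule are not reported here. Markers covered 13 cell types. Summed levels not given above were, at rest and after stimulation, 852 to 998 and 249 to 398 CPM for follicular B cells, 956 to 1829 and 970 to 2115 for plasma cells, 56.0 to 74.6 and 246 to 366 for B-1 cells, 9.71 to 16.1 and 0.917 to 2.55 for NK cells, 12.0 to 58.2 and 1.13 to 1.43 for platelets, 0.363 to 3.63 and 0.0353 to 0.0793 for neutrophils, and 142 to 151 and 65.0 to 73.6 for endothelial and stromal cells. Some sums rest mainly on 1 gene or on markers that moved in different directions. Pecam1 alone gave 139 to 148 CPM of the endothelial and stromal sum at rest and 63.5 to 72.6 CPM after stimulation. Of the B-1 markers, Zbtb32, Spn and Ctla4 were called higher, Cd5 and Bhlhe41 lower, and Itgam was not called. Transcript structures are from GENCODE M21.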

Additional observations from a re-analysis of the deposited data

Results flagged for a closer look

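The response of Ccr6 to stimulation went in opposite directions between genotypes. The stimulated level divided by the resting level was 0.455 in wild-type and 0.614 in hs3b-hs4-deleted cells, and 1.12 in 3'RR-deleted and 1.71 in 3'PAL-deleted cells. With 1 library for each genotype and state, the difference between these genotypes was not tested.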

How the results depend on the processing

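The 7 members that fell on stimulation were called lower under all 19 alternatives, with 7 to 8 members called lower when libraries were left out. The eighth was Cxcr5, called in 5 of 19 alternatives, among them the fit without the genotype term, which is the replicate block of this design (8 members lower in that unblocked fit). The libraries of a genotype share no label beyond the genotype. Over both states the 3'RR deletion had 1 member called higher by DESeq2, Itgb7, and none by edgeR. In stimulated 3'RR-deleted cells 1 member in place of 2 met the size rule at a pseudocount of 5, and likewise 1 with scaling by library size alone. Over all genes, calls were 278 (3'RR), 20 (hs3b-hs4) and 76 (3'PAL) by edgeR, 527, 186 and 257 by DESeq2, up to 657, 189 and 313 with no filter, and 71 to 360, 1 to 43 and 3 to 110 without 1 library, lowest without the resting library of 3'RR, of hs3b-hs4 and of wild-type. The comparison by hs3b and hs4 gave 0 genes in each part by edgeR, 74, 7 and 2 by DESeq2 and 71, 8 and 0 with no filter. The median log2 change over all genes moved by at most 0.0827 in these settings. The cause of these differences was not tested. Each member had at least 232 counts in every library.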
